A study of Mus musculus with 8 samples.

Results

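The genes described here are 10 members of that pathway among the 54532 genes of the count table: the receptors Acvrl1, Eng, Bmpr1a, Bmpr2 and Acvr1, the signal transducers and inhibitors Smad1, Smad6 and Smad7, and the target genes Id1 and Id3. They were picked by symbol with their values in these libraries known, Acvrl1 because its level was lower in the knockout macrophages, to see what its relatives and the usual BMP target genes measured beside it. For that reason their differences are given as description, with no p-value.

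Bulk RNA sequencing was done on 8 libraries of bone marrow-derived macrophages (BMDMs), 4 from wild-type (WT) mice and 4 from Gsdmd-/- mice, which lack the pore-forming protein gasdermin D. The WT mice were bought, as female C57BL/6J animals of 6 to 8 weeks. The Gsdmd-/- line was received as a gift, so that genotype and colony cannot be told apart. Sex, strain and age are not given separately for the Gsdmd-/- donors in the sources used here. Marrow cells were cultured for 6 days with macrophage colony-stimulating factor (M-CSF), and all libraries are labelled as untreated. No source used here ties the libraries to single animals, so p-values measure the spread between these libraries, which may be technical.

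Bone morphogenetic proteins (BMPs) bind pairs of type I receptors (Acvrl1, also called ALK1, Acvr1 and Bmpr1a) and type II receptors (Bmpr2, Acvr2a, Acvr2b), with endoglin (Eng) as a co-receptor of Acvrl1. The type I receptor phosphorylates Smad1, Smad5 or Smad9, which enter the nucleus with Smad4 and switch on the Id genes, while Smad6 and Smad7 are induced in the same way and shut the receptors off. ID proteins have no DNA-binding region and hold back basic helix-loop-helix factors such as Tcf3. Acvrl1 and Eng are best known from blood vessels, where the circulating ligands Gdf2 (BMP9) and Bmp10 act on them, and Eng is also present on macrophages.

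The libraries held 14935114 to 16794810 counts. Values are given as CPM, the counts of a gene scaled to 1000000 counts per library with TMM factors, and 3 counts correspond to 0.177 to 0.199 CPM. WT 2 and WT 3 stood apart from the other 6 libraries on the first principal component, which took 43.6% of the variance: they lay at 45.4 and 38.8, and the others between -25.9 and -7.19. Many results that rest on them are therefore given with and without these libraries, but not all. Where no value without them is printed, a difference may rest on this pair. The targeted gene Gsdmd (chr15:75862327-75867408, mm10) had 75.3 ± 14.1 CPM in WT and 16.2 ± 1.56 CPM in Gsdmd-/- libraries (SD, n = 4), with a log2 fold change of -2.22 (adjusted p = 4.67e-05, edgeR quasi-likelihood test), and all Gsdmd-/- libraries lay below all WT libraries.

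Acvrl1, the type I receptor ALK1, lies at chr15:101128522-101145336 on the plus strand (ENSMUSG00000000530). It measured 35.7, 73.1, 77.4 and 49.2 CPM in WT 1 to WT 4 and 22.7, 21.3, 34.9 and 30.1 CPM in Gsdmd-/- 1 to 4. WT 2 and WT 3 were the highest of all libraries, and WT 1 lay just above Gsdmd-/- 3, so that the groups came close to each other but did not overlap. The mean was 58.9 ± 19.8 CPM in WT and 27.3 ± 6.42 CPM in Gsdmd-/- libraries (SD, n = 4), which is 46.3% of the WT mean. The log2 fold change, fitted by edgeR on all genes and taken as Gsdmd-/- against WT throughout, was -1.11 with a standard error (SE) of 0.248. Without WT 2 and WT 3 it was -0.64 (SE 0.201). Leaving out any 1 library gave -1.29 to -0.95. In bulk samples, fewer cells of a type and less RNA per cell cannot be told apart.

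The other receptors differed less between the genotypes. Eng (ENSMUSG00000026814, chr2:32646595-32682669), the co-receptor of Acvrl1, measured 50.8, 77.4, 77.9 and 44.4 CPM in WT 1 to WT 4 and 64.2, 67.1, 56.9 and 61.2 CPM in Gsdmd-/- 1 to 4. WT 2 and WT 3 were again the highest libraries and WT 1 and WT 4 the lowest, and all Gsdmd-/- libraries fell between these pairs. The group means were therefore almost equal, with 62.6 ± 17.6 and 62.4 ± 4.36 CPM and a log2 fold change of -0.01 (SE 0.176). Without WT 2 and WT 3 the log2 fold change was 0.39 (SE 0.11), so that the difference in Eng turned positive while that in Acvrl1 stayed negative. Reads at Eng may include some of Fpgs, an overlapping gene on the other strand whose counts amounted to 15.2% of those of Eng. Whether strand was used in counting is not given in the sources used here.

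Bmpr2 (ENSMUSG00000067336, chr1:59763400-59879014), the type II receptor that pairs with Acvrl1, measured 86.1, 108, 90.4 and 57.7 CPM in WT and 70.0, 83.5, 63.6 and 80.7 CPM in Gsdmd-/- libraries. WT 4 was the lowest and WT 2 the highest of the 8, and the groups overlapped. Its log2 fold change was -0.20 (SE 0.171), and 0.04 without WT 2 and WT 3. Acvr1 (ALK2; ENSMUSG00000026836, chr2:58388644-58567157) measured 12.1, 17.3, 15.4 and 14.7 CPM in WT against 12.7, 12.4, 11.8 and 13.7 CPM, overlapping through WT 1, with a log2 fold change of -0.23 (SE 0.127) that was -0.09 without WT 2 and WT 3. Bmpr1a (ALK3; ENSMUSG00000021796, chr14:34410734-34503341) had 20.8 ± 4.2 CPM in WT and 21.3 ± 2.06 CPM in Gsdmd-/- libraries, with ranges of 15.3 to 25.4 and 18.3 to 23.1 CPM and a log2 fold change of 0.03 (SE 0.15). Acvrl1 was thus the receptor of the 5 with the log2 fold change farthest from 0, and the only 1 of them whose groups were separate, as they were with lower Gsdmd-/- values for 4.12% of all 12911 genes tested.

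The receptors Acvrl1, Eng, Bmpr2 and Acvr1, which are 4 of the 10 genes, had WT 2 and WT 3 as their 2 highest libraries. This is 40.0% of the 10 genes, whereas 17.9% of the 12911 genes tested had the same order. Smad1 had these libraries as its 2 lowest, an order seen in 17.5% of the genes tested. Among the 10 genes, the receptors other than Bmpr1a are therefore those with WT 2 and WT 3 on top.

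**Figure D1:**
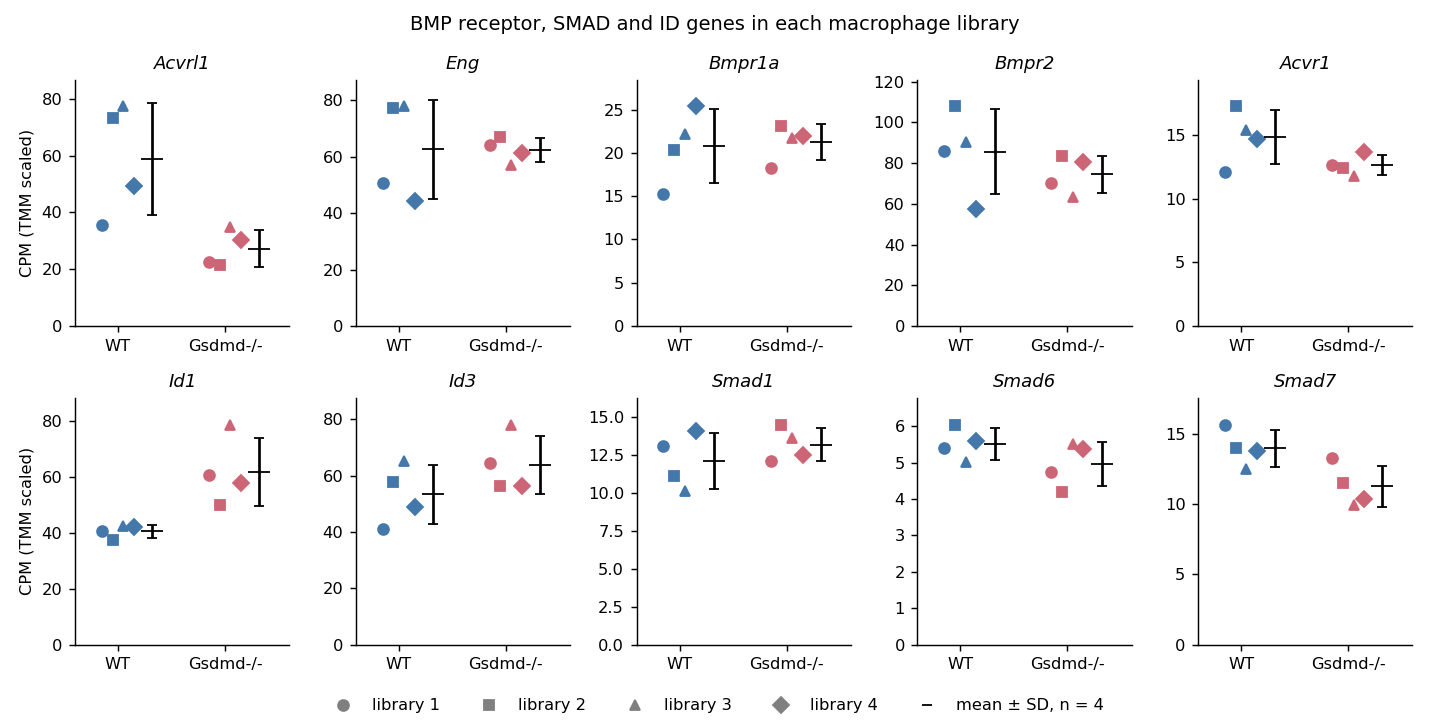
CPM (TMM scaled, linear axes from 0) of the 10 genes in each library, with WT in blue and Gsdmd-/- in red, a marker shape per library number and the mean ± SD (n = 4) beside each group. Acvrl1 is lower and Id1 higher in Gsdmd-/- libraries with no overlap of the groups, and the WT points of Acvrl1 and Eng fall into a high pair (WT 2 and WT 3) and a low pair.

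Smad1, the transcription factor that the type I receptors phosphorylate, lies at chr8:79338395-79399518 (ENSMUSG00000031681). It measured 13.1, 11.1, 10.1 and 14.1 CPM in WT and 12.1, 14.5, 13.6 and 12.5 CPM in Gsdmd-/- libraries. The groups overlapped, and the log2 fold change of 0.13 (SE 0.131) was -0.05 without WT 2 and WT 3, the lowest libraries for this gene. Smad6 (ENSMUSG00000036867, chr9:63953076-64022059), the inhibitor that acts mainly on BMP receptors, was the lowest of the 10 genes with 5.52 ± 0.432 CPM in WT and 4.96 ± 0.608 CPM in Gsdmd-/- libraries. Its 71 to 99 counts per library and overlapping groups went with a log2 fold change of -0.16 (SE 0.15). Smad7 (ENSMUSG00000025880, chr18:75367529-75395935), the inhibitor shared with the TGF-beta branch, measured 15.7, 14, 12.5 and 13.8 CPM in WT and 13.3, 11.5, 9.96 and 10.4 CPM in Gsdmd-/- libraries. Only Gsdmd-/- 1 reached into the WT range, passing WT 3, and the log2 fold change was -0.31 (SE 0.127) with all libraries and -0.38 (SE 0.149) without WT 2 and WT 3.

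Id1, an inhibitor of basic helix-loop-helix factors and the most used readout of BMP signalling, lies at chr2:152736251-152737410 (ENSMUSG00000042745). It measured 40.7, 37.3, 42.3 and 42.1 CPM in WT 1 to WT 4 and 60.6, 49.8, 78.7 and 57.7 CPM in Gsdmd-/- 1 to 4. The WT libraries lay close together, WT 2 and WT 3 included, and every Gsdmd-/- library lay above them, Gsdmd-/- 3 farthest. The means of 40.6 ± 2.33 and 61.7 ± 12.2 CPM (SD, n = 4) put the Gsdmd-/- level at 152% of WT, with a log2 fold change of 0.60 (SE 0.131). This value was 0.57 without WT 2 and WT 3, and 0.47 without Gsdmd-/- 3. The difference in Id1 thus ran opposite to that in the receptor Acvrl1 in the same libraries.

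Id3 (ENSMUSG00000007872, chr4:136143497-136145755), its close relative, measured 41.1, 57.8, 65.3 and 49.0 CPM in WT and 64.6, 56.2, 78.1 and 56.3 CPM in Gsdmd-/- libraries. Here the groups overlapped, with WT 2 above Gsdmd-/- 2 and 4, and WT 3 above all Gsdmd-/- libraries but the third. The log2 fold change was 0.26 (SE 0.155), and 0.50 (SE 0.151) without WT 2 and WT 3. Id2, of the same family but not among the 10 genes, had 379, 379, 401 and 400.5 CPM in WT and 512, 474, 576 and 474 CPM in Gsdmd-/- libraries, so that all Gsdmd-/- libraries lay above all WT libraries. The log2 fold change of Id2 was 0.38 (SE 0.0869), which did not pass the correction over all genes (adjusted p = 0.115, edgeR quasi-likelihood test) and was under the minimum of 0.5 in the fold cutoff used further on. Id4 held 2 counts in all WT and 3 in all Gsdmd-/- libraries.

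Summed over Id1, Id2 and Id3, the libraries held 461, 474, 508 and 492 CPM in WT and 637, 579.6, 732 and 588 CPM in Gsdmd-/- libraries, most of it Id2. Gsdmd-/- 3 had the highest Id1, Id2 and Id3 of all libraries and also the highest Acvrl1 among the Gsdmd-/- libraries. Within WT, Acvrl1 was highest in WT 2 and WT 3, where Id1 was 37.3 and 42.3 CPM, beside 40.7 and 42.1 CPM in WT 1 and WT 4.

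**Figure D2:**
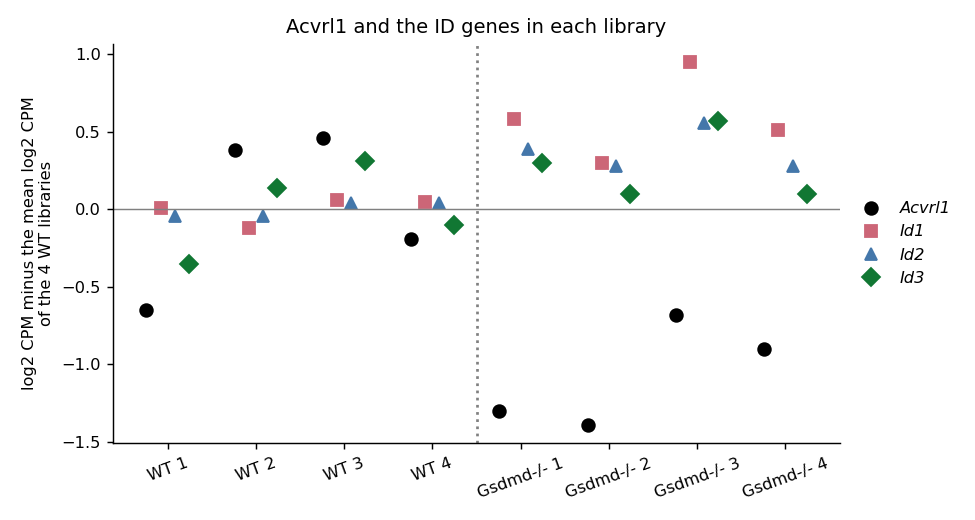
log2 CPM of Acvrl1 (black circles), Id1, Id2 and Id3 in each library, minus the mean log2 CPM of the 4 WT libraries, with the genotypes parted by the dotted line. In all 4 Gsdmd-/- libraries the Id genes lie above 0 and Acvrl1 below it, and Gsdmd-/- 3 has the highest value of all 4 genes within its genotype.

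The promoters of the Id genes and of Smad6 are where Smad1 and Smad4 are known to bind, at GC-rich SMAD elements, so short stretches of Id2, Id3 and Smad6 that hold these letters are shown. RefSeq promoter windows (GRCm38.p6, 250 bases before to 50 after the start) were found for 7 of the 10 genes. None was found for Acvrl1, Id1 and Smad7. Both strands were searched for GGCGCC. The same was done for GGAGCC, and for the palindrome GTCTAGAC. None of the matches given here overlapped another. They are in capitals in these stretches of 30 bases, each written 5′ to 3′ along the gene.

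Id2 site 1: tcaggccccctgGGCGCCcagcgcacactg

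Id2 site 2: gtatgatggacgGGAGCCcttccaccaatg

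Id3 site: cctcgcatccgaGGCTCCgctgtcctcggc

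Smad6 site: ccgcGGAGCCgccaaagtGTCTAGACtggc

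The Id2 sites lie at chr12:25096306-25096335 and chr12:25096163-25096192 on the minus strand, with the motif at -231 to -226 and at -88 to -83 from the RefSeq start. The Id3 site lies at chr4:136143623-136143652 on the plus strand, with GGAGCC read on the other strand as GGCTCC at -187 to -182. The Smad6 site lies at chr9:64022052-64022081 on the minus strand, with GGAGCC at -18 to -13 and GTCTAGAC across the start from -4 to 4. Smad6 held GGAGCC once more, at -102 to -97, in a stretch not shown. By GENCODE M21 the first Id2 site is within an intron of an Id2 transcript, and the second Id2 site and the Id3 site are within untranslated exon of their own gene in at least 1 transcript. The Smad6 gene begins at position 64022059 on this strand, so that its site reaches from the untranslated start of the first exon into the sequence before the gene. GGCGCC was present in 11.9% of the 32851 windows of 300 bases, GGAGCC in 30.8% and GTCTAGAC in 0.213%. A match describes the letters only.

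Of the other members, the windows of Bmpr1a and Bmpr2 held GGCGCC once, at -198 to -193 and at -105 to -100, and that of Acvr1 held GGAGCC at -220 to -215 and at -80 to -75. The windows of Eng and Smad1 held none of these letters, which says nothing of other sequence. Genes with a match included Id2, whose groups were separate, and Id3, Smad6 and the receptors named, whose groups overlapped.

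Levels can be compared between genes only per length, as CPM divided by the exon length in kilobases (RPKM). On this scale Id1 (35.0 RPKM) and Id3 (29.8 RPKM) had the highest WT means of the 10 genes, and their WT ranges overlapped. Eng (15.5 RPKM) and Acvrl1 (13.8 RPKM) came next, also overlapping with each other but with no library in the range of Id3 or Bmpr2. Bmpr2 (4.76 RPKM), Bmpr1a (3.27 RPKM), Smad7 (3.09 RPKM) and Acvr1 (3.08 RPKM) followed, each overlapping the next. Smad1 (1.93 RPKM) and Smad6 (1.72 RPKM) were lowest and overlapped too. In Gsdmd-/- libraries the mean of Acvrl1 was 6.39 RPKM, with 4.99 to 8.19 RPKM against 14.1 to 16.6 RPKM for Eng. The overlap of the receptor with its co-receptor that was seen in WT was thus absent in the knockout.

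**Figure D3:**
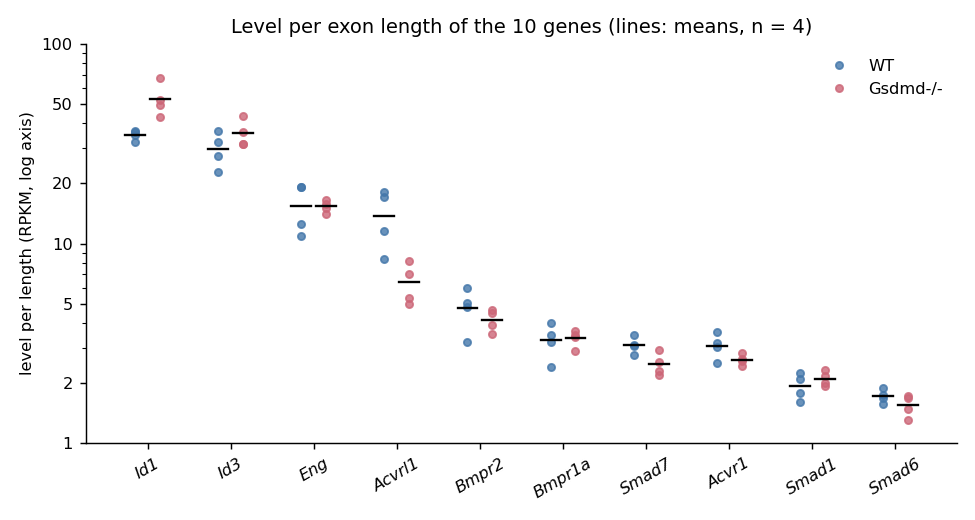
Level per exon length (RPKM, log axis) of the 10 genes in the WT (blue) and Gsdmd-/- (red) libraries, ordered by the WT mean, with lines at the group means (n = 4). Id1 and Id3 have the highest levels, Acvrl1 overlaps Eng in WT but not in Gsdmd-/- libraries, and Smad6 has the lowest WT mean (1.72 RPKM).

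A gene was called by the cutoff that the study used when its unadjusted p was under 0.05 and its absolute log2 fold change at least 0.5. By this cutoff 1.54% of all 12911 genes tested were called higher and 3.28% lower in Gsdmd-/- libraries, and by an adjusted p under 0.05 only 0.139% were called higher and 0.209% lower. Of the 10 genes, Id1 was on the higher and Acvrl1 on the lower side by the study's cutoff, and 0 were called either way by the adjusted p. Id1 fell under the fold cutoff, at 0.47, without Gsdmd-/- 3. Groups did not overlap for 1 of the 10 in each direction, against 3.48% of all genes tested for higher and 4.12% for lower. Of the 10 log2 fold changes, 4 were above 0 and 6 below, with a median of -0.08 beside -0.0068 over all genes tested. As the same contrast led to the choice of the genes, nothing is read from these counts.

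The rest of the pathway was covered by 90 further genes in 6 lists, of which 42 had enough counts to be tested and 23 had no count in any library. By the study's cutoff 1 was called higher and 4 lower, beside 1.54% and 3.28% of all genes tested. By the adjusted p 0 were called higher and 1 lower, beside 0.139% and 0.209% of all genes tested. With 20 log2 fold changes above 0, 22 below and a median of -0.02, the tested genes were split almost evenly about 0.

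Ligands were mostly unmeasured. Of 17 listed, 2 could be tested, and 9 were at 0 counts in all libraries, among them Gdf2, the main ligand of Acvrl1, and Bmp4, Bmp5, Bmp6 and Bmp7. A count of 0 allows up to 0.199 CPM in the shallowest library, by counting error alone. Bmp10, the other ligand of Acvrl1, had 2 counts over the WT and 2 over the Gsdmd-/- libraries, and Bmp2 had 5 and 7.

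Gdf3, a BMP-type ligand that can also bind and block other BMPs, was lower in Gsdmd-/- macrophages. It measured 7.55, 8.43, 6.96 and 8.46 CPM in WT and 3.38, 4.26, 4.31 and 2.65 CPM in Gsdmd-/- libraries. All Gsdmd-/- libraries lay below all WT libraries, with 46.5% of the WT mean. The log2 fold change was -1.10 (SE 0.179, adjusted p = 0.0361, edgeR quasi-likelihood test), and with WT 2 and WT 3 left out the adjusted p was 0.0378. The call was lost (adjusted p 0.0596 to 0.179) on leaving out any 1 library other than WT 4. Inhba, which encodes the subunit of activin A, had the highest CPM of the ligand genes, with 57.5 ± 4.61 CPM in WT and 44.9 ± 7.96 CPM in Gsdmd-/- libraries. Its groups were separate too, but the log2 fold change of -0.36 did not pass the correction (adjusted p = 0.318).

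Of 15 other receptors and co-receptors 9 were tested, and 1 was called lower by the study's cutoff and none by the adjusted p. This was Acvr2a, a type II receptor for activins and BMPs, with 13.6, 10.4, 10.4 and 11.4 CPM in WT and 7.17, 9.64, 7.17 and 7.63 CPM in Gsdmd-/- libraries. The groups were separate, with a log2 fold change of -0.54 (SE 0.147, adjusted p = 0.198). It fell under the fold cutoff without WT 1 (-0.44), Gsdmd-/- 1 (-0.49) or Gsdmd-/- 3 (-0.49), and was -0.67 without WT 2 and WT 3. Its relative Acvr2b had a log2 fold change of 0.01 (SE 0.227). The genes of the list with the highest CPM were Tgfbr2 and Tgfbr1, the TGF-beta receptors, and Acvr1b, the activin receptor ALK4. Their log2 fold changes were -0.15, -0.36 and -0.34 (adjusted p = 0.783, 0.398 and 0.226). Tgfbr2 and Tgfbr1 were highest in WT 2 and WT 3, at 233 and 222 CPM and at 236 and 212 CPM. In WT 1 and WT 4 Tgfbr2 measured 166 and 127 CPM, against 145 to 192 CPM in Gsdmd-/- libraries. For Tgfbr1 these values were 179 and 135 CPM against 130.5 to 166 CPM. The BMP type I receptor Bmpr1b and the co-receptor Rgma were at 0 counts in all libraries.

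Among 17 secreted antagonists and ligand proteases, 5 were tested and 1 was called lower by the study's cutoff. Nbl1, a DAN-family antagonist, held 6 to 23 counts per library and had overlapping groups, with a log2 fold change of -0.97 (SE 0.38, adjusted p = 0.354). Without WT 2 and WT 3, its 2 highest libraries, the log2 fold change was -0.39 (SE 0.436) and the call was lost, as it also was without any 1 of WT 2, WT 3, Gsdmd-/- 1 and Gsdmd-/- 4. Fstl1, a secreted follistatin-like glycoprotein, had the highest CPM of the list, with 519 ± 48.1 CPM in WT and 603 ± 23.1 CPM in Gsdmd-/- libraries. All its Gsdmd-/- libraries lay above all WT libraries, at a log2 fold change of 0.21 (adjusted p = 0.374). Twsg1, which binds BMPs outside the cell, and Dand5, another antagonist, had log2 fold changes of -0.23 and 0.13 (adjusted p = 0.414 and 0.886). Noggin (Nog), Sost and Chrdl1 were at 0 counts.

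Of 17 SMADs and SMAD regulators 15 were tested. Of these 14 had log2 fold changes between -0.20 and 0.25, among them Smad4 (0.03, SE 0.0737), Smad2 (0.08, SE 0.091) and Smad5 (-0.20, SE 0.13), and none of the 15 was called by the adjusted p. Highest in CPM were Fkbp1a, which keeps type I receptors inactive, Ski, a repressor of SMAD transcription, and Smurf1, a ubiquitin ligase for Smad1. Their log2 fold changes were 0.15, -0.11 and -0.06 (adjusted p = 0.656, 0.733 and 0.837). Pmepa1, an inhibitor of the TGF-beta branch, was called lower by the study's cutoff at 7 to 38 counts per library, with overlapping groups and a log2 fold change of -1.28 (SE 0.403, adjusted p = 0.26) that was -1.70 without WT 2 and WT 3.

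Beyond Id1 and Id3, 19 further BMP target genes were listed, and 6 had enough counts to be tested. None was called in either direction by either cutoff. Id2 had the highest CPM, followed by Cdkn1a, the cell cycle inhibitor p21 (295 ± 70.3 CPM in WT and 329.7 ± 23.4 CPM in Gsdmd-/- libraries, log2 fold change 0.16, adjusted p = 0.727), and Runx2, a bone transcription factor (log2 fold change -0.44, adjusted p = 0.273). Cdkn1a measured 233 and 235 CPM in WT 2 and WT 3, whereas WT 1 and WT 4 (353 and 358 CPM) lay above all Gsdmd-/- libraries (303 to 350.2 CPM). Its value above 0 thus rests on that pair. The log2 fold changes were above 0 for 4 of the 6, Cdkn1a included, and below for 2, with a median of 0.18. Targets best known from endothelium were near the floor. Tmem100 held 2, 1, 3 and 2 counts in WT and 7, 5, 5 and 6 counts in Gsdmd-/- libraries, too few to be tested with the filter used. With no filter the study's cutoff called Tmem100 higher (log2 fold change 1.51, adjusted p = 0.531, edgeR quasi-likelihood test). Hamp, with 5 counts in WT and 0 in Gsdmd-/- libraries, was then called lower (-3.44, adjusted p = 0.567, same test). Atoh8 held 2 and 3 counts per genotype, and Hey2 and Heyl were at 0.

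The last list, of E proteins and factors that dimerise with them, held 5 genes, and all were tested. Tcf12, Tcf3 and Tcf4, the E proteins that ID proteins bind and the 3 highest in CPM, had log2 fold changes of 0.18, 0.10 and -0.16 (adjusted p = 0.575, 0.792 and 0.644). Lyl1, a blood cell helix-loop-helix factor that dimerises with E proteins, was called higher by the study's cutoff. It measured 4.63, 1.77, 2.2 and 6.33 CPM in WT and 12.6, 10, 6.72 and 7.7 CPM in Gsdmd-/- libraries. WT 2 and WT 3 were the lowest, and WT 4 came close to Gsdmd-/- 3 without overlap. The log2 fold change was 1.31 (SE 0.37), and it did not pass the correction (adjusted p = 0.214). Without WT 2 and WT 3 the log2 fold change was 0.76 (SE 0.264) and the call by the study's cutoff was kept.

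**Figure D4:**
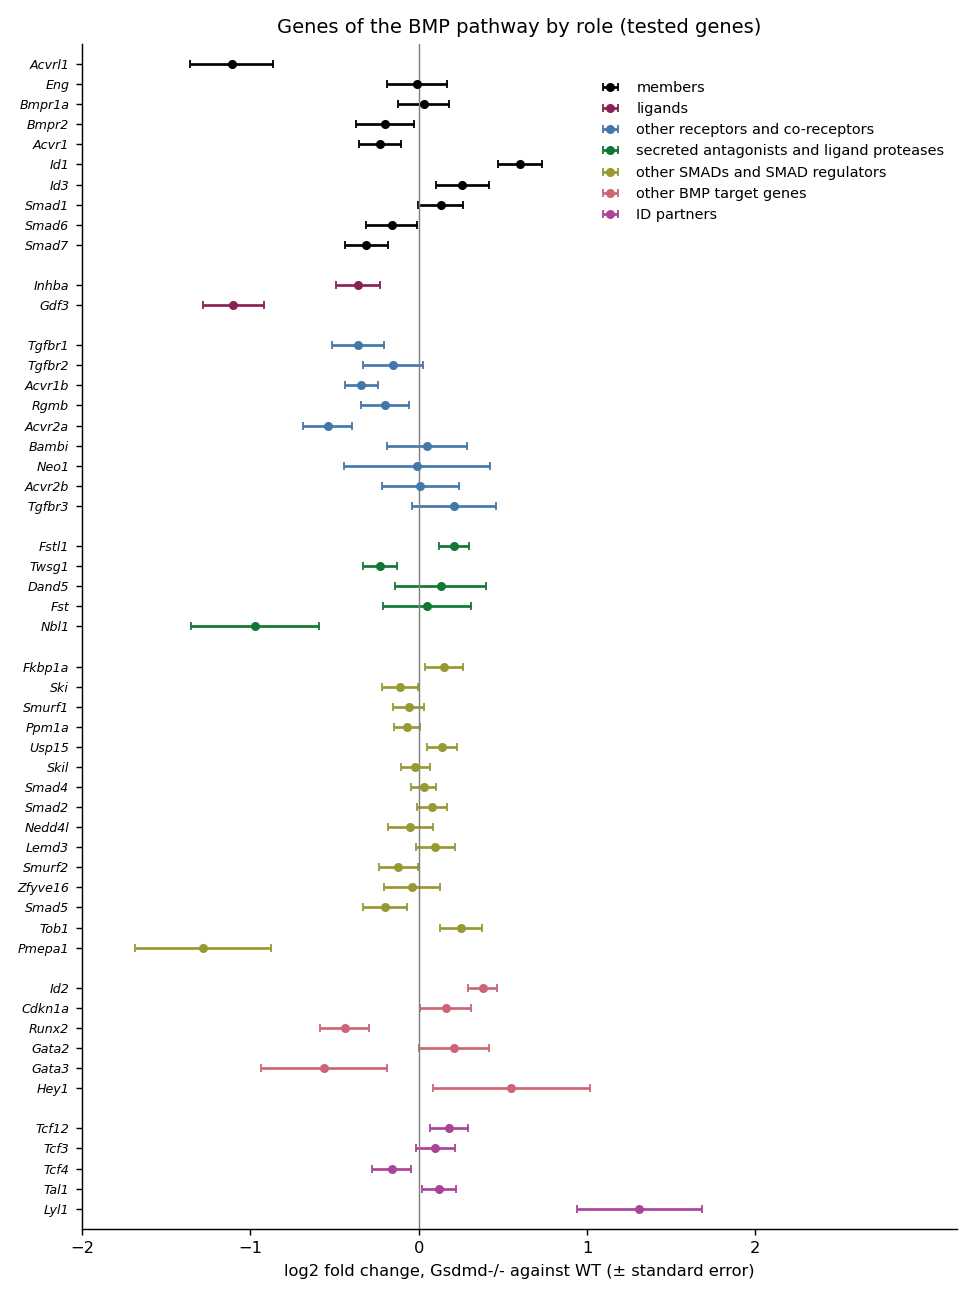
log2 fold change (Gsdmd-/- against WT, ± standard error) of the 10 genes (black) and of the 42 tested genes of the wider pathway, coloured by role and ordered by WT CPM within each role. The SMADs and their regulators lie near 0 apart from Pmepa1 (-1.28), whereas Acvrl1 (-1.11) and Gdf3 (-1.10) lie far to the left and Lyl1 (1.31) to the right.

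Acvrl1 is on chromosome 15 with Gsdmd, 25.3 Mb away, and close to another receptor of the family, Acvr1b. Of 51 genes annotated within 500 kb of Acvrl1, 9 were tested, with log2 fold changes above 0 for 2 and below 0 for 7 and a median of -0.32 beside -0.0068 over all genes tested. Atg101, counted among the 7, was equal in both groups within rounding (-0.0, SE 0.137). By the study's cutoff 0 were called higher and 1 lower, beside 1.54% and 3.28% of all genes tested, and by the adjusted p 0 were called in either direction. The gene called was Smagp, a small membrane protein gene 492 kb before Acvrl1, with 11 to 45 counts per library and a log2 fold change of -0.91 (adjusted p = 0.318). It was -0.57 without WT 2 and WT 3, and the call was lost there and without WT 3 or Gsdmd-/- 4 alone. The nearest tested genes were Fignl2, 50 kb before it (log2 fold change -0.32, SE 0.268, adjusted p = 0.693), and Acvr1b, 28.7 kb after it (-0.34, SE 0.0999, adjusted p = 0.226). Acvr1b measured 39.3, 42.5, 40.7 and 32.9 CPM in WT and 28.1, 30.6, 31.6 and 32.3 CPM in Gsdmd-/- libraries, with no overlap. Fignl2, like Acvrl1, was highest in WT 2 and WT 3, at 16.1 and 14.8 CPM, and without them its log2 fold change was 0.34 (SE 0.151). That of Acvr1b was -0.24 (SE 0.111) without them. What is carried along with the knockout allele on this chromosome was not tested.

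**Figure D5:**
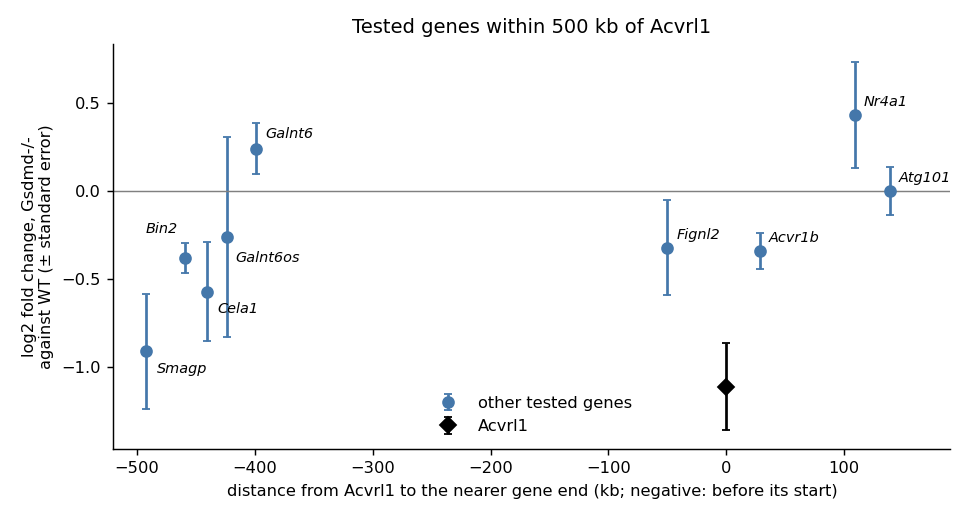
log2 fold change (Gsdmd-/- against WT, ± standard error) of the 9 tested genes within 500 kb of Acvrl1 and of Acvrl1 itself, against the distance in kb from Acvrl1 to the nearer gene end. The values of 7 of the 9 are below 0, Atg101 among them only at -0.0, and Acvrl1 (-1.11) is the lowest point drawn.

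Across the 8 libraries, the genes whose log2 CPM was most like that of Acvrl1 among 9612 genes of at least 5 CPM were Atf3 (Pearson r = 0.995), Evl (0.991), Rtn4rl2 (0.990), Noct (0.985) and Sept9 (0.982). All 5 had WT 2 and WT 3 as their highest libraries and Gsdmd-/- 1 and Gsdmd-/- 2 as their lowest, as Acvrl1 does. Rtn4rl2, for example, measured 3.9, 15.2, 17.3 and 9.74 CPM in WT and 1.95, 1.54, 4.88 and 3.85 CPM in Gsdmd-/- libraries. Of the 9 other genes described here, Acvr1 was most like Acvrl1 (r = 0.809), Id3 had an r of 0.00892, and Id1 had an r of -0.589. The libraries share their genotype groups and the pair that stands apart, so these values describe the order of libraries only.

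For Id1 the most similar gene was Id2 (r = 0.979), followed by Rilpl2 (0.974), Prkar1a (0.969), Memo1 (0.964) and Junb (0.961), the last an immediate early transcription factor gene. Junb measured 149, 129, 141 and 159.9 CPM in WT and 218, 181, 235 and 205 CPM in Gsdmd-/- libraries, with Gsdmd-/- 3 the highest as for Id1. For Id3 they were Gsto1 (0.976), Tmem38b (0.973), Glmp (0.973), Dram2 (0.970) and Laptm4a (0.961). These 5 were lowest in WT 1 and highest in Gsdmd-/- 3, and the r between Id1 and Id3 was 0.676.

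The macrophage markers listed were Adgre1, Csf1r, Cd68, Mertk, Fcgr1, Lyz2 and Itgam. They summed to 15316 and 17207 CPM in WT 2 and WT 3 and to 21199 and 23409 CPM in WT 1 and WT 4. In Gsdmd-/- libraries the sum was 19377 to 23365 CPM, most of it Lyz2 as in WT. Of the others, Fcgr1 measured 7.09 and 6.66 CPM in WT 2 and WT 3 and 17.8 to 40.7 CPM elsewhere, with a log2 fold change of -0.08 that became -0.85 (SE 0.15) and was called lower by the study's cutoff without this pair. Cd68, Lyz2 and Itgam were also lowest and Mertk highest in that pair, and Adgre1 was lower in all Gsdmd-/- than in all WT libraries (log2 fold change -0.24, adjusted p = 0.31). Without the pair the log2 fold change of Adgre1 was -0.14. Those of Csf1r, Cd68, Mertk, Lyz2 and Itgam were -0.35, -0.26, 0.05, -0.02 and -0.1 there. Because Acvrl1 and Eng are abundant in endothelium, 13 endothelial markers were summed as well, to 143 to 275 CPM in WT and 135 to 213 CPM in Gsdmd-/- libraries. Most of this sum was Vwf and Kdr, which went opposite ways in WT 2 and WT 3. Vwf measured 238 and 201 CPM there and 81.2 to 131 CPM elsewhere, and Kdr 23.6 and 21.1 CPM there and 44.1 to 77.8 CPM elsewhere. The defining markers Tek, Cldn5 and Sox17 were at 0 in all 8 libraries. Of the 5 tested, 2 were called lower by the study's cutoff, Esam and Cdh5, and Esam measured 0.365 CPM in WT 1 and WT 4 but 5.87 and 4.95 CPM in WT 2 and WT 3. Both calls were lost without this pair, where the log2 fold changes were 0.95 for Esam and -0.38 for Cdh5, whereas Tie1, at -0.80 with all libraries, was called higher there (1.86, SE 0.566). The sums for 7 dendritic cell markers were 52.4 and 48.6 CPM in WT 2 and WT 3 and 16.9 to 22.7 CPM in the other libraries. Clec9a, lower by the study's cutoff with all libraries (log2 fold change -0.95) but not without this pair (-0.06), made up 49.1 and 45.3 CPM of these, and the other 6 markers were not higher in this pair as a group. The sums for 9 progenitor and neutrophil markers were 18.7 and 18.6 CPM in WT 2 and WT 3 and 54.9 to 76.6 CPM elsewhere, with Ly6g and Retnlg at 0. This difference was that of Kit, at 11.4 and 10.3 CPM in the pair and 46.0 to 71.0 CPM elsewhere, while S100a8 and Cd34 were not lowest there. The sums for 11 stromal markers were 20.4 and 23.1 CPM in WT 2 and WT 3 and 6.88 to 12.6 CPM in the others, with Lum at 0, and Postn made up 15.3 and 18.3 CPM of the pair's sums. Without the pair Postn turned from -0.87 to 1.22 on the log2 scale and Pdgfra from -0.88 to 1.53, and both were then called higher by the study's cutoff. Single genes of these lists thus differed in the same libraries as Acvrl1 and Eng, and their part in those values was not tested.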

How the data were processed

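RNA was extracted with TRIzol and made into libraries with the Illumina TruSeq RNA kit, per the labels. The authors deposited raw counts per gene in 1 table, with mm10 as build per the submitters' processing notes. Aligner, counter and annotation are not given in the sources used here. Total counts set the precision, and intervals and floors cover counting error only. Positions, exon lengths and the 54495 genes matched came from GENCODE M21.

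Genes passing filterByExpr (12911) were fitted in R 4.3.3 with edgeR 4.0.16 (TMM, quasi-likelihood F-test, two-sided, Benjamini-Hochberg over all genes tested), genotype being the only factor, and the fit was tested on simulated data. The SE of these fits was derived as the absolute log2 fold change divided by the square root of the F statistic. CPM of single libraries are TMM scaled, and log2 CPM used a prior count of 2. Alternatives were RLE and upper-quartile scaling, a minimum of 10 counts per library or none in place of the filter, limma 3.58.1 voom, DESeq2 1.42.0, the edgeR exact test, the replicate block, a log2 fold change of at least 1, and leaving out libraries.

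The members and lists were chosen with earlier results of these data known. Named were the 10 members, wider pathway genes and neighbours called by either cutoff, the 3 genes of highest mean CPM in each list, the nearest neighbours of Acvrl1, the 5 genes most correlated with Acvrl1, Id1 and Id3, and marker sums. Genes named for low or 0 counts, Acvr2b, Smad2, Smad4, Smad5, Bin2, Atg101 and single marker genes were chosen after their values were seen. Hemojuvelin was found under its older symbol Hfe2.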

Additional observations from a re-analysis of the deposited data

Results flagged for a closer look

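In 104 groups of 4 libraries screened over the 10 genes and the 42 tested pathway genes, 2 held a library far from the other 3 by Dixon's criterion, and chance alone marks about 1 in 20 groups. Smad5, which carries the BMP signal beside Smad1, had 16.5 CPM in Gsdmd-/- 1 and 20 to 20.4 CPM in the other Gsdmd-/- libraries. Tal1, a helix-loop-helix partner of the E proteins, had 26.8 CPM in Gsdmd-/- 1 and 30.8 to 31.2 CPM in the other Gsdmd-/- libraries. No group of the 10 genes was among them.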

How the results depend on the processing

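Without WT 2 and WT 3 the log2 fold change was -0.64 for Acvrl1 and 0.39 for Eng. By more than its standard error the value also moved there for Id3 (0.50), Bmpr2 (0.04), Acvr1 (-0.09) and Smad1 (-0.05), the second and the last with a change of sign. By the SD of log2 CPM between libraries no member but Acvrl1 and Eng moved by more under any of the 17 alternatives. Leaving out 1 library at a time gave ranges of -1.29 to -0.95 for Acvrl1, -0.14 to 0.12 for Eng and 0.47 to 0.69 for Id1.

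Over all genes, the study's cutoff called 199 higher and 424 lower. It called 421 and 783 with no filter, 59 and 140 at a log2 fold change of at least 1, 405 higher without WT 2 and WT 3, and 155 to 318 higher and 297 to 704 lower without 1 library (most without WT 4). The adjusted p called 18 higher and 27 lower. It called 44 and 65 with no filter, 105 and 187 by DESeq2, 92 and 152 by the edgeR exact test, 53 and 108 without WT 2 and WT 3, and 8 to 28 and 5 to 56 without 1 library. The replicate block, with the shared library numbers, called 9 and 16. Same-numbered libraries deviated together by correlations of only -0.201 to 0.182, and 2 of 8 libraries correlated best with their own number, so the numbers are not taken as pairs.

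Of the wider pathway, the study's cutoff called 1 higher and 4 lower, against 3 higher and 6 lower with no filter. The genes added with no filter were Amhr2 and Tmem100 (higher) and Bmp1 and Hamp (lower), all with few counts. It called 2 higher without WT 2 and WT 3, and 2 lower both with at least 10 counts in every library and at a log2 fold change of at least 1. Leaving out 1 library gave 1 to 2 higher, with 2 only without WT 2, and 2 to 7 lower, with 2 without Gsdmd-/- 1 and 7 without WT 4. By the adjusted p the pathway had 0 higher and 1 lower (Gdf3), but 2 higher by DESeq2 and by the edgeR exact test (Id2 and Lyl1), 0 lower under the replicate block (Gdf3 at adjusted p = 0.116), and 0 to 1 lower without 1 library. Id2 had adjusted p values of 0.00168 to 0.369 and Lyl1 of 0.0274 to 0.523 over the alternatives.

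Near Acvrl1, the study's cutoff called 0 higher and 1 lower. It called 1 higher with no filter, 0 lower without WT 2 and WT 3 and at a log2 fold change of at least 1, and 0 to 2 lower without 1 library (0 without WT 3 or Gsdmd-/- 4, 2 without WT 1). By the adjusted p 1 was lower by DESeq2 and by the edgeR exact test. This was neither Smagp nor Acvr1b, which had an adjusted p under 0.05 in 0 of 17 alternatives. The cause of these shifts was not tested. The 15 ligand genes left out by the filter on low counts held at most 30 counts each over all libraries, and none was called by the study's cutoff with no filter.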
